A study of Homo sapiens with 6 samples.

Results

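The genes described here are 31 regulators and transcriptional targets of the tumour suppressor p53, chosen by name from the 20263 rows of a gene count table. All 31 had a row. Expression was measured by RNA sequencing of HCCLM3, an established human hepatocellular carcinoma line used as a model of metastatic liver cancer. Of the 6 libraries, 3 came from cells given CC-885 for 24 h and 3 from cells given DMSO, the solvent control, and both groups were grown with 10% serum. CC-885 binds cereblon, the substrate receptor of a cullin ubiquitin ligase, and turns the ligase on proteins such as the translation termination factor GSPT1. The study addressed the action of CC-885 on the Golgi protein GOLM1 and on tumour growth. No source used here gives the dose. The labels number the libraries of each group without saying whether each had its own culture, so a p-value here reflects library-to-library spread that may be purely technical.

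p53 is a transcription factor that is kept low in unstressed cells, because MDM2 marks it for degradation and MDM4 blocks its activity. When DNA damage or ribosome stress releases it, p53 binds a response element built from a pair of similar decamers and switches on genes for cell cycle arrest, DNA repair, antioxidant metabolism and cell death. Several of its targets, MDM2 and the phosphatase PPM1D among them, act back on p53, and some targets, such as GADD45A and the Polo-like kinases, also respond to other stress pathways.

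The library totals ran from 30432509 to 39809131 counts, and a gene with 0 counts in a library could still have a level of up to 0.0754 to 0.0986 CPM (counts scaled to library size), which is 3 counts of the total and covers counting error only. This limit takes counts as independent, and is too low if fragments were counted more than once. The 5 epithelial markers summed to 1370 to 1661 CPM in treated and 1811 to 2216 CPM in control libraries. Nearly all of it came from the keratin genes KRT8, which was called lower with CC-885 (log2 fold change -0.49), and KRT18, which was not called (-0.21). The other epithelial markers were low: EPCAM averaged 3.64 CPM in treated and 3.46 CPM in control cells, CDH1 3.77 and 4.50 CPM, and KRT19 had 2 counts in 1 DMSO library and 0 elsewhere. The defining genes of hepatocytes were close to absent despite the label of a liver cancer line. Of 12 such markers 6, ALB and AFP among them, had no count in any library. The 12 together summed to 0.232 to 0.572 CPM in treated cells and 1.23 to 1.61 CPM in the control. Most of the control sum came from HNF4A, the only 1 of the 12 that was tested. It was called lower, with a mean of 0.213 CPM in treated and 1.25 CPM in control cells. Of 5 leukocyte markers 3 (PTPRC, LYZ, CD3E) were at 0, and the sum ran from 2.96 to 3.95 CPM in the treated and 2.87 to 4.05 CPM in the control libraries. Of 4 endothelial markers KDR was at 0, and the sum was 3.11 to 4.93 CPM in treated and 0.871 to 1.35 CPM in control libraries, where CDH5 and VWF were called higher with CC-885. The 6 fibroblast markers, with LUM at 0, summed to 152 to 186 and 158 to 189 CPM, nearly all of it COL1A1, which was higher with CC-885, and PDGFRB, which was lower. The part of any other cell type in the results was not tested.

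The promoters of 5 members are shown because they hold letters that match the p53 response element or a cyclic AMP response element, and because the calls of these genes differed. RefSeq windows of build GRCh38.p14, from 250 bases before to 50 after an annotated start, were matched for 27 of the 31 members, in 40 windows. GADD45A, RRM2B, TP53INP1 and PHLDA3 had no window and were not searched. The 40 windows were searched on both strands for the p53 response element. It was taken as a pair of consensus decamers at most 1 base apart, each with its core CNNG intact and with up to 2 other mismatches in all. Capitals mark the matches. The windows are chr12:68808767-68809066 (plus strand) for MDM2, at its downstream start, chr11:47214724-47215023 (plus strand) for DDB2, chr10:88991181-88991480 (plus strand) for FAS, chr15:88621090-88621389 (plus strand) for AEN and chr17:60599943-60600242 (plus strand) for PPM1D. In PPM1D the capitals mark the cyclic AMP response element TGACGTCA instead.
MDM2: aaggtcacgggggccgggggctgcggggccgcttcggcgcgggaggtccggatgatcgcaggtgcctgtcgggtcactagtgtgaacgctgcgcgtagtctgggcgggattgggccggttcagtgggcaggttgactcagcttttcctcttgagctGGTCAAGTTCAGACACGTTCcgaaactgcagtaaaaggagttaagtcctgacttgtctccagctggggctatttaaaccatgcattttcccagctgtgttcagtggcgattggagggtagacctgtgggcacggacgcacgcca
DDB2: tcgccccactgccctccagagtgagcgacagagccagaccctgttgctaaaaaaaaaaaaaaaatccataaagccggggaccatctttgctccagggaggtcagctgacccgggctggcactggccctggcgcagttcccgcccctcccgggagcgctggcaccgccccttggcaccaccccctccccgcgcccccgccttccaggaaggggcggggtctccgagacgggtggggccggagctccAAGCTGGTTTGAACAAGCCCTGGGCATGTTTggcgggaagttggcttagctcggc
FAS: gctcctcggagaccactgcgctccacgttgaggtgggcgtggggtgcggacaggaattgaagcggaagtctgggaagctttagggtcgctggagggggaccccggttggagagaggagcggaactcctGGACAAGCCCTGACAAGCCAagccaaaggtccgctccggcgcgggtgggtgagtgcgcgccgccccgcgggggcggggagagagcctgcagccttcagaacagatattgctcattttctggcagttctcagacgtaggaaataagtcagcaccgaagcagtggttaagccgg
AEN: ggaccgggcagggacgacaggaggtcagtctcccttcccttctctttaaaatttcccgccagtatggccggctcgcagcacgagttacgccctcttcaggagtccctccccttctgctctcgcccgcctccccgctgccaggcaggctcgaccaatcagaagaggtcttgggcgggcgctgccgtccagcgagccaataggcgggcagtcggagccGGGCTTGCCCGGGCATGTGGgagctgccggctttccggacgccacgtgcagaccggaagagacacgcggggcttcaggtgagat
PPM1D: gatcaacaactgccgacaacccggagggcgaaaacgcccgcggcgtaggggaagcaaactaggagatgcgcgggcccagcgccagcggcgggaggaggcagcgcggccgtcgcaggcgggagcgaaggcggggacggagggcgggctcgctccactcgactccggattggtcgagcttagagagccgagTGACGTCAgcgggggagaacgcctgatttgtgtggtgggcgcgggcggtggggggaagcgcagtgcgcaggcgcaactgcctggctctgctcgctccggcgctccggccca

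A p53 response element was found for 4 of the 27 members with a window, and for 0.674% of the 27305 genes that have one. The element of MDM2 began 94 bases before the start, that of FAS 122 bases before it and that of AEN 34 bases before it, each with 2 mismatches and no spacer. DDB2 held 3 decamers in a row that give overlapping pairs, the first beginning 5 bases before the start with 1 mismatch and the second with 0 mismatches and a spacer of 1 base. Among these 4 genes with a match, DDB2 and FAS were called lower with CC-885, AEN higher, and MDM2 was not called. Elements outside the windows were not searched for, and the part of p53 in these calls was not tested. The sequence TGACGTCA stood 61 bases before the start of PPM1D, the only member with it among the 27 searched, and in the windows of 2.25% of genes. The AP-1 site TGACTCA was in windows of MDM2, PERP and EDA2R and in those of 6.05% of genes, and the amino acid response sequence TGATGCAA in those of none of the 27 members searched and of 1.08% of genes. CCAAT was present for 12 of the 27 members and for 39.7% of genes. These matches describe letters in a window and say nothing of binding.

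With CC-885, 7 of the 31 members were higher, 13 were lower, 9 were not called and 2, EDA2R and SPATA18, were too low to be tested. Of the 29 tested members 20 were thus called, against 52.6% of all tested genes. The members moved apart rather than together: GADD45A, PLK2, PLK3 and POLK were higher by at least 2-fold, while ZMAT3, FDXR, TRIAP1, SESN1, FAS and DDB2 were lower by at least 2-fold. Of all tested genes 8.23% were called higher and 10.3% lower at that size. Every call rests on edgeR's quasi-likelihood test with Benjamini-Hochberg adjustment over the 13444 tested genes and an adjusted p below 0.05. Over all tested genes 25.8% were called higher and 26.8% lower. The share of higher members, 24.1% of the 29 tested, was close to the background and that of lower members, 44.8%, lay above it. The members were chosen with earlier results of these data known, so these shares describe them and are not a test. The median log2 fold change was -0.17 over the tested members and -0.04 over all tested genes. The 3 CC-885 libraries lay wholly above the 3 DMSO libraries in 7 of the 29 tested members (24.1%) and wholly below in 13 (44.8%). Over all tested genes these shares were 29.9% and 31.2%. The members so separated were the same 20 that were called, and a small p with 3 libraries a group already favours such separation. All 20 kept their call under all 15 other settings tried, the leaving out of any library included. In bulk samples, fewer cells that express a gene and less RNA per cell cannot be told apart.

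**Figure D1:**
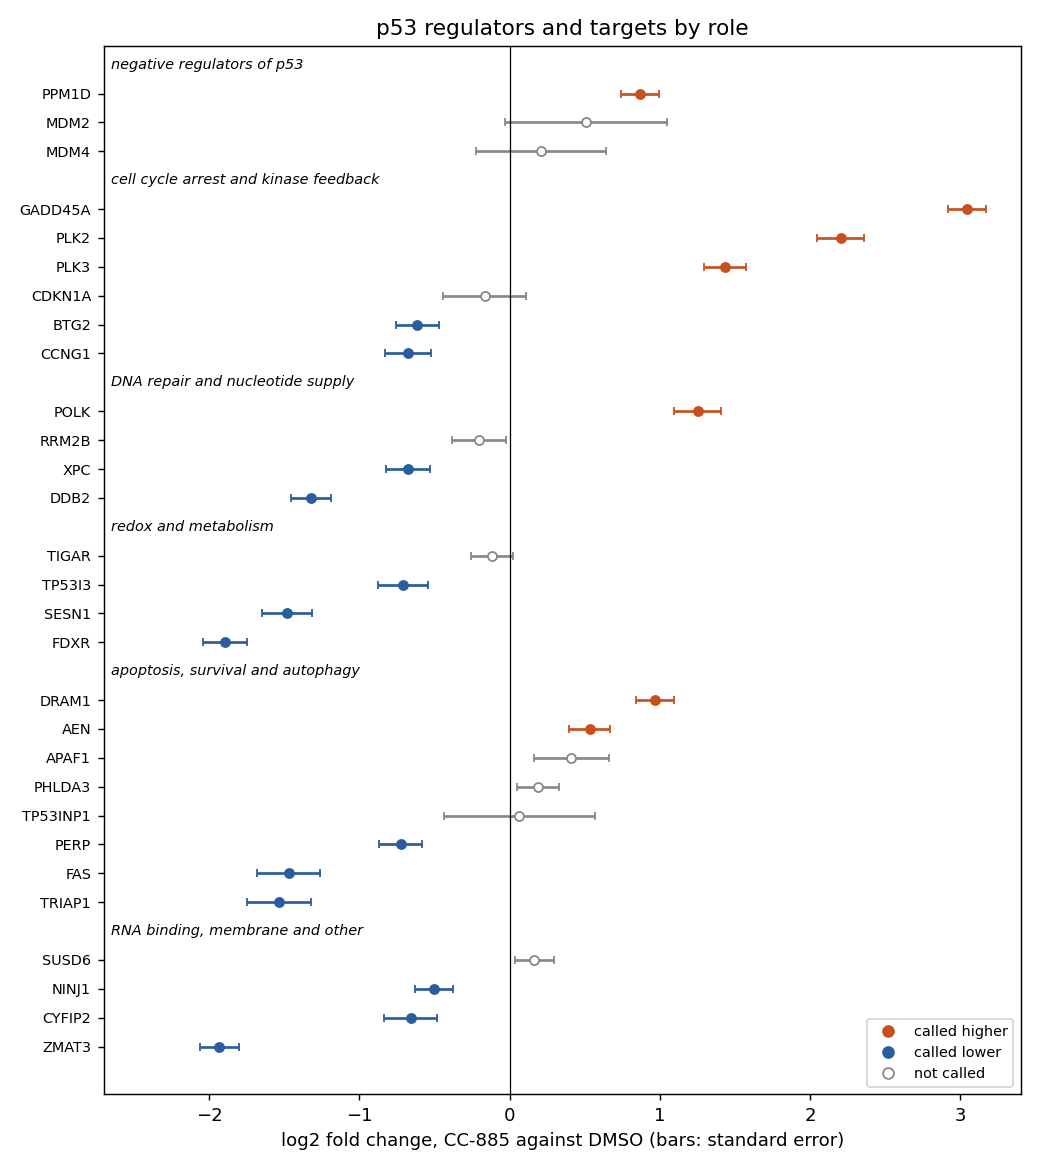
Log2 fold change of CC-885 against DMSO (x axis) for the 29 tested members, grouped by role, with bars of 1 standard error and filled points for called genes. Called genes of both directions stand side by side in the cell cycle, DNA repair and apoptosis groups. In the redox group and in the last group 3 of 4 genes each were called, all lower.

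The negative regulators of p53 did not move as a group: PPM1D rose, and MDM2 and MDM4 were not called. PPM1D, the WIP1 phosphatase that switches off p53 and the kinases that activate it, stood at 87.1, 89 and 97.3 CPM with CC-885 and at 48.1, 46.1 and 55.3 CPM with DMSO. It was 1.83-fold higher (log2 fold change 0.87, SE 0.13, adjusted p = 0.000193), with the lowest CC-885 library well above the highest DMSO library.

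MDM2, the main ubiquitin ligase of p53, stood at 129, 138 and 152 CPM with CC-885 and at 168, 39.8 and 86.5 CPM with DMSO. Its CC-885 libraries lay close together, whereas its DMSO libraries spanned 4.22-fold, and DMSO replicate 1 was the highest of all 6. The log2 fold change was 0.51 (SE 0.54, adjusted p = 0.477). Without DMSO replicate 1 MDM2 was called higher (1.15, adjusted p = 0.0215). Without DMSO replicate 2, its lowest library, the log2 fold change was 0.14 (adjusted p = 0.723), so the value for this gene depended on which DMSO library was left out.

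MDM4, the MDM2 relative that holds p53 inactive without degrading it, gave 18.2, 16.6 and 13.0 CPM with CC-885 and 10.6, 7.6 and 23.3 CPM with DMSO. Here DMSO replicate 3 was the highest library and the log2 fold change was 0.21 (SE 0.43, adjusted p = 0.712). Without DMSO replicate 3 MDM4 was called higher (0.81, adjusted p = 0.00176), and without DMSO replicate 2 its log2 fold change was -0.07. The coefficient of variation among the DMSO libraries was 66.1% for MDM2 and 60.3% for MDM4, and only 0.454% and 0.648% of the 10802 tested genes with a mean of at least 5 CPM varied as much. The ratio of MDM2 to MDM4 counts was 15.9, 5.24 and 3.72 in DMSO replicates 1, 2 and 3 and 7.06, 8.29 and 11.7 in the CC-885 libraries. The exons of MDM2 share 439 of 13284 bases with another gene on their strand and 918 with genes on the other strand, and no source used here says whether strand was used in counting.

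**Figure D2:**
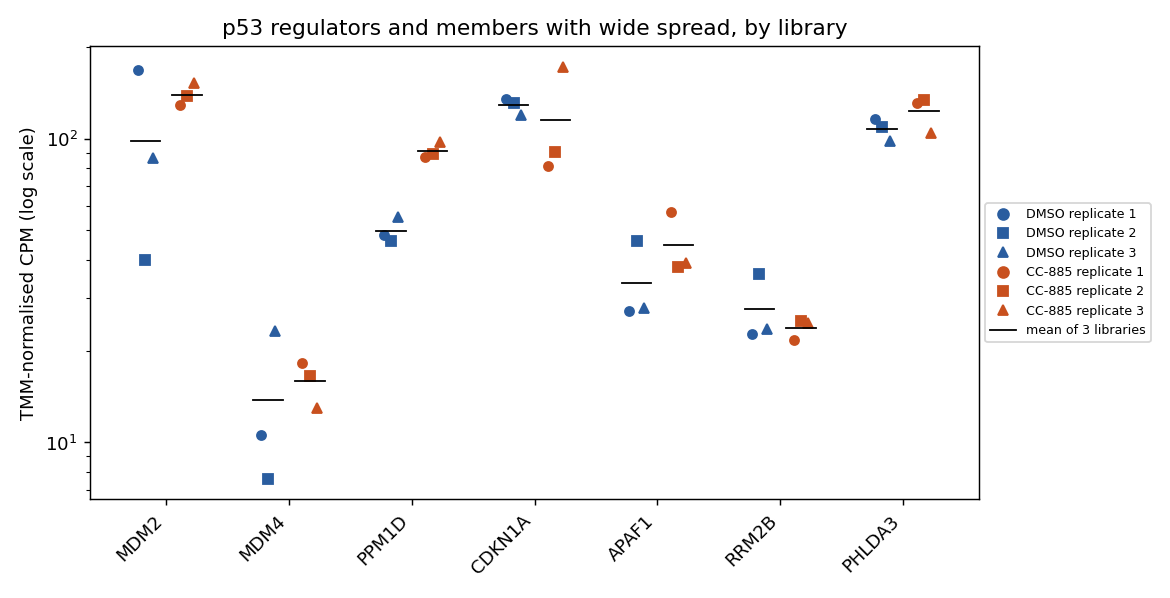
TMM-normalised CPM (log scale) in each of the 6 libraries for the 3 negative regulators, CDKN1A and 3 further members that were not called, with a line at the mean of 3 libraries. MDM2 and MDM4 spread widely among DMSO libraries (39.8 to 168 and 7.6 to 23.3 CPM), CDKN1A among CC-885 libraries (81.5 to 173 CPM), and PPM1D separates the groups.

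Among the genes of cell cycle arrest, 3 rose, 2 fell and CDKN1A, the p53 target best known for arrest, was not called. GADD45A, a growth arrest gene induced by DNA damage and other stress, stood at 232, 241 and 222 CPM with CC-885 and at 28.4, 27.0 and 28.9 CPM with DMSO. With a rise of 8.25-fold (log2 fold change 3.04, SE 0.13, adjusted p = 5.36e-08) it was the most strongly changed of the tested members, and its libraries within a group hardly differed. Its relative GADD45B rose 6.91-fold (63.3 ± 6.52 against 9.17 ± 1.27 CPM, mean ± SD, n = 3, log2 fold change 2.79), while GADD45G had 2 counts in 1 DMSO library and 0 elsewhere, too few to be tested.

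PLK2, a Polo-like kinase of the stress response, gave 290.4, 321 and 335 CPM with CC-885 and 55.0, 74.4 and 76.1 CPM with DMSO (log2 fold change 2.20, SE 0.16, adjusted p = 1.88e-06). PLK3, a second stress-induced kinase of this family, gave 33.5, 30.9 and 29.3 CPM against 10.7, 11.4 and 12.6 CPM (1.44, SE 0.14, adjusted p = 1.24e-05). Both kinases thus separated the groups without overlap, at 4.6-fold and 2.71-fold. The mitotic relative PLK1 was not called (-0.13, adjusted p = 0.546). Its sign reversed in 2 settings (0.00 and 0.04) and without DMSO replicate 2 it was called lower (-0.29, adjusted p = 0.0489). PLK4, which duplicates centrioles, was called higher (0.71, adjusted p = 0.00169).

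CDKN1A, which encodes the cyclin-dependent kinase inhibitor p21, stood at 81.5, 90.1 and 173 CPM with CC-885 and at 135, 131 and 119.9 CPM with DMSO. CC-885 replicate 3 lay above every DMSO library and the other CC-885 libraries below every DMSO library. The log2 fold change was -0.17 (SE 0.28, adjusted p = 0.638), and without CC-885 replicate 3 CDKN1A was called lower (-0.58, adjusted p = 0.0104). Only 1.47% of the 10802 genes varied as much among the CC-885 libraries. Of the related inhibitors, CDKN1B was not called (-0.04, with 0.01 to 0.04 in the settings that reversed its sign) and CDKN1C fell, from 25.7 ± 1.7 to 10.5 ± 2.14 CPM (-1.29, adjusted p = 9.38e-05).

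BTG2, an antiproliferative factor that recruits the mRNA deadenylase, averaged 41.2 ± 4.94 CPM with CC-885 against 63.1 ± 8.57 CPM and fell by 0.61 on the log2 scale (SE 0.14, adjusted p = 0.00417). Its relatives went the other way: BTG1 rose by 0.80 (adjusted p = 0.000176) and BTG3 by 0.95 (adjusted p = 0.000415) on the log2 scale. CCNG1, cyclin G1, which brings a phosphatase to MDM2, fell from 54.5 ± 10.1 to 34.2 ± 3.29 CPM (-0.67, SE 0.15, adjusted p = 0.0033), and its relative CCNG2 was not called (-0.25, adjusted p = 0.117, and -0.41 with adjusted p = 0.0085 under GC and length offsets).

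Of the 4 members of DNA repair and nucleotide supply, 2 fell, 1 rose and 1 was not called. DDB2 and XPC, which recognise damaged bases for nucleotide excision repair, both fell, and POLK, a polymerase that copies past damage, rose. DDB2 stood at 49.5, 53.5 and 43.8 CPM with CC-885 and at 128, 129 and 110.4 CPM with DMSO (log2 fold change -1.32, SE 0.13, adjusted p = 1.54e-05), a fall to well under the lowest DMSO library. XPC fell from 102 ± 17.5 to 63.9 ± 4.29 CPM (-0.67, SE 0.15, adjusted p = 0.00251), but 1871 of its 4798 exon bases are shared with genes on the opposite strand, which makes its count less certain.

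POLK gave 32.7, 33.2 and 45.3 CPM with CC-885 and 15.1, 15.8 and 15.9 CPM with DMSO (log2 fold change 1.25, SE 0.16, adjusted p = 7.07e-05). CC-885 replicate 3 was the highest, and the other CC-885 libraries also lay above all DMSO libraries. Of the exon bases of POLK, 984 of 9105 are shared with genes on the opposite strand, CERT1 among them, which was itself higher (log2 fold change 0.47). RRM2B, the p53-induced subunit of ribonucleotide reductase, stood at 23.9 ± 1.91 and 27.5 ± 7.38 CPM and was not called (-0.20, SE 0.18, adjusted p = 0.37), with 0.05 when DMSO replicate 2 was left out.

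Of the 4 members of redox control and metabolism, 3 were called lower and 1 was not called, where 26.8% of all tested genes were called lower. FDXR, the mitochondrial ferredoxin reductase that feeds electrons to steroid and iron-sulphur synthesis, stood at 16.7, 16.7 and 16.0 CPM with CC-885 and at 66.3, 67 and 50.2 CPM with DMSO (log2 fold change -1.89, SE 0.15, adjusted p = 2.88e-06). The CC-885 libraries were almost equal, at a level 3.71-fold below DMSO. SESN1, a sestrin that restrains mTORC1 and limits peroxides, gave 10.9, 10.3 and 10.1 CPM against 28.5, 35.2 and 23.7 CPM (-1.48, SE 0.16, adjusted p = 3.29e-05).

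The sestrins did not share a direction. SESN2, the member of the family that ATF4 induces, rose from 42.7 ± 5.33 to 74.4 ± 6.58 CPM (log2 fold change 0.80, adjusted p = 0.00056), and SESN3 was not called (0.06, with values from -0.15 to -0.01 in the settings that reversed its sign). TP53I3, a quinone oxidoreductase, fell from 57.3 ± 10.8 to 35.1 ± 5.21 CPM (-0.71, SE 0.17, adjusted p = 0.00425). TIGAR, a phosphatase that draws sugar from glycolysis into the pentose phosphate pathway, stood at 35.8 ± 1.59 and 38.9 ± 5.84 CPM and was not called (-0.12, adjusted p = 0.492, and 0.02 without DMSO replicate 2). Of its 4017 exon bases 1711 are shared with another gene on the same strand, which makes its count less certain.

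Among the 10 genes of cell death, survival and autophagy, 2 rose, 3 fell, 3 were not called and 2 were not tested. FAS, the death receptor of the extrinsic pathway, gave 3.76, 3.33 and 3.89 CPM with CC-885 and 9.11, 13.4 and 7.88 CPM with DMSO (log2 fold change -1.47, SE 0.21, adjusted p = 0.000189). Every CC-885 library was under every DMSO library. The exons of FAS share 380 of 4253 bases with ACTA2 on the opposite strand, and ACTA2 was lower as well, at 1.68 ± 0.389 against 11.97 ± 2.79 CPM. The part of ACTA2 reads in the FAS counts was not tested.

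TRIAP1, a small mitochondrial survival protein, gave 13.2, 14.2 and 12.2 CPM with CC-885 and 39.0, 49.6 and 26.3 CPM with DMSO (log2 fold change -1.53, SE 0.21, adjusted p = 0.000186). The DMSO libraries spanned 1.89-fold but did not reach down to the CC-885 libraries. PERP, a membrane protein of desmosomes that takes part in p53-driven death, stood at 258, 245 and 254 CPM against 390.0, 486 and 376 CPM (-0.72, SE 0.14, adjusted p = 0.00149).

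DRAM1, a lysosomal protein that links p53 to autophagy, averaged 134 ± 13.0 CPM against 68.6 ± 4.11 CPM and rose by 0.97 on the log2 scale (SE 0.13, adjusted p = 0.000104). AEN, a nuclease of apoptosis, rose from 77.5 ± 5.84 to 112 ± 16.2 CPM (0.53, SE 0.14, adjusted p = 0.00751). Neither APAF1, the scaffold of the apoptosome (0.41, SE 0.25, adjusted p = 0.193), nor PHLDA3, an inhibitor of AKT (0.19, SE 0.14, adjusted p = 0.271), was called. PHLDA3 shares 598 of its 3138 exon bases with another gene on the same strand. APAF1 reached 57.4 CPM in CC-885 replicate 1 and 46.0 CPM in DMSO replicate 2, against 27.1 to 38.9 CPM in the other 4 libraries, and without DMSO replicate 2 it was called higher (0.72, adjusted p = 0.0144).

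TP53INP1, which links p53 to cell death and autophagy, EDA2R and SPATA18 were barely detected. TP53INP1 ran from 0.182 to 0.465 CPM over all libraries and was not called (log2 fold change 0.06, adjusted p = 0.926, and -0.33 to -0.10 in the settings that reversed its sign). EDA2R, a receptor of the ectodysplasin family, had 2, 2 and 0 counts with CC-885 and 20, 8 and 23 with DMSO and did not pass the filter. Pooled over 3 libraries its level was 0.038 CPM in treated and 0.484 CPM in control cells, a ratio of 12.7 (exact 95% interval 4.68 to 48.5, counting error only). The interval takes the counts as independent, and is too narrow if fragments were counted more than once. With no filter on low counts EDA2R was called lower (adjusted p = 0.0043). SPATA18, a factor of mitochondrial quality control, had 2 counts in CC-885 replicate 2 and 0 in the other 5 libraries, which is under the limit that a count of 0 allows.

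The remaining members were ZMAT3, CYFIP2, NINJ1 and SUSD6, of which 3 fell. ZMAT3, a zinc finger protein that binds RNA and shapes splicing downstream of p53, stood at 24.2, 21.03 and 25.5 CPM with CC-885 and at 90.6, 94.2 and 85.1 CPM with DMSO. It had the largest decrease among the tested members (log2 fold change -1.93, SE 0.13, adjusted p = 1.26e-06), 3.81-fold, with little spread in either group. CYFIP2, a subunit of the WAVE complex that drives actin branching, fell from 98.7 ± 24.7 to 62.6 ± 4.56 CPM (-0.66, SE 0.18, adjusted p = 0.00926). NINJ1, which ruptures the plasma membrane of dying cells, fell from 80.2 ± 8.16 to 56.6 ± 3.92 CPM (-0.50, SE 0.13, adjusted p = 0.00658). SUSD6, a membrane protein, was not called (0.17, SE 0.13, adjusted p = 0.298).

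**Figure D3:**
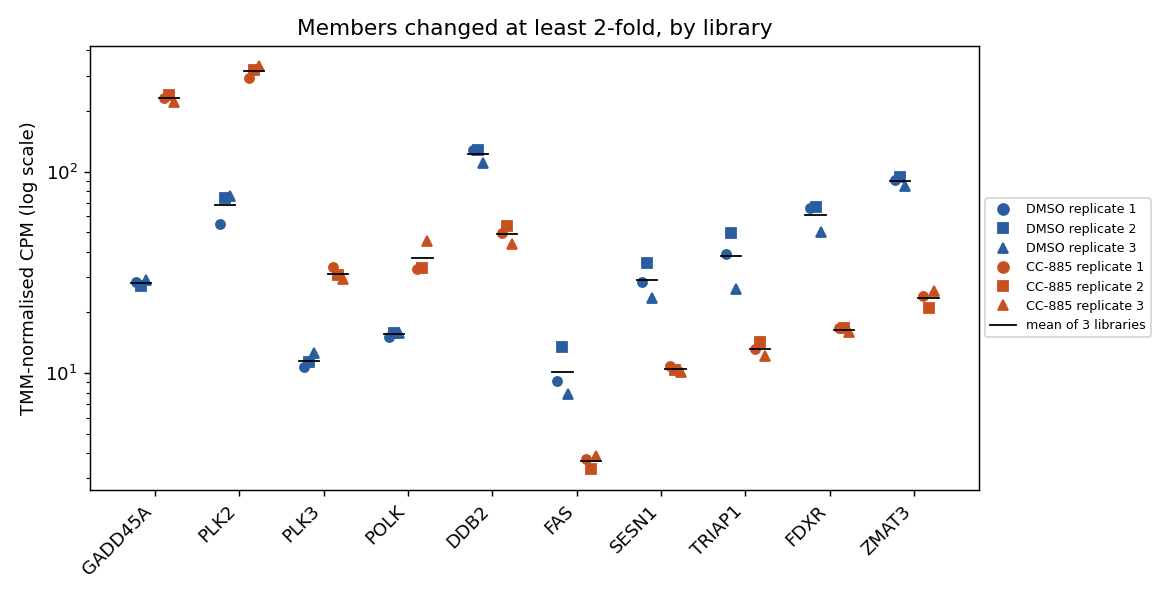
TMM-normalised CPM (log scale) in each library for the 10 members called with a change of at least 2-fold, ordered by fold change, with a line at the mean of 3 libraries. In each of these genes the CC-885 and DMSO libraries do not overlap, from GADD45A (222 to 241 against 27.0 to 28.9 CPM) to ZMAT3 (21.03 to 25.5 against 85.1 to 94.2 CPM).

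On a scale of CPM per kilobase of annotated exon, which allows genes to be compared, the order of the members changed. With DMSO the highest level was that of PERP (97.3), followed by CDKN1A (42.2), PHLDA3 (34.4), NINJ1 (30.3) and TRIAP1 (26.5), and GADD45A stood 14th at 13.6. With CC-885 GADD45A was first at 112 and PLK2 second at 66.1, ahead of PERP (58.9), PHLDA3 (39.2) and CDKN1A (37.6). TRIAP1 went from the 5th to the 16th place (9.16), FDXR from the 11th to the 22nd (16.99 to 4.58) and ZMAT3 from the 19th to the 25th (9.33 to 2.45). MDM2 exceeded MDM4 on this scale in both groups, at 10.5 against 1.45 with CC-885 and 7.38 against 1.26 with DMSO. The lengths cover every annotated exon, so a gene with long exons that these cells do not use appears lower than it is.

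**Figure D4:**
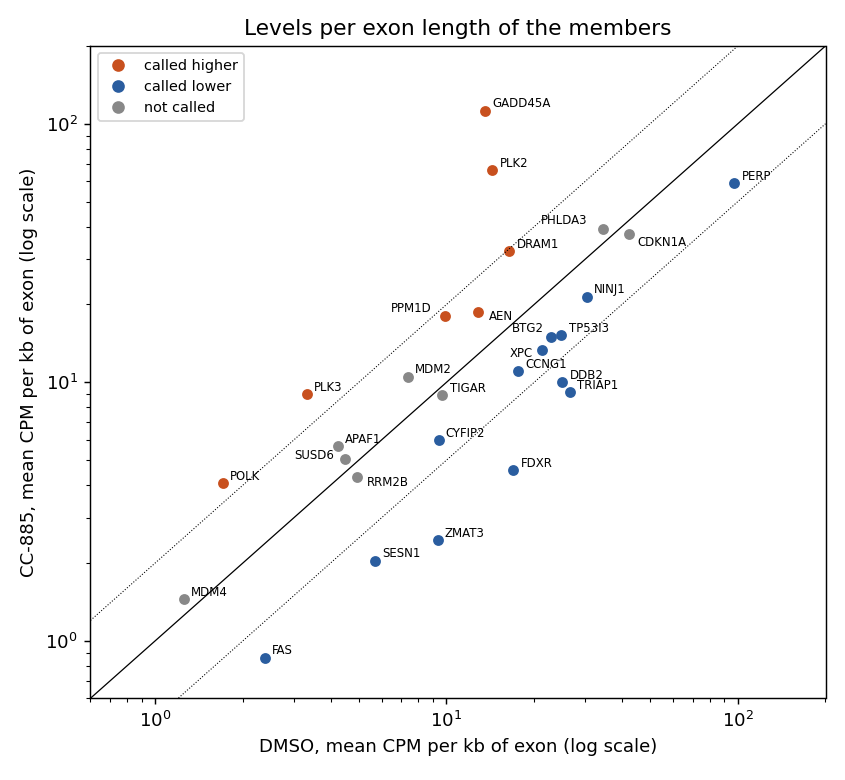
Mean CPM per kilobase of annotated exon with DMSO (x axis) and CC-885 (y axis), both on log scales, for the tested members apart from TP53INP1 (0.053 and 0.056). The solid line marks equal levels and the dotted lines a 2-fold difference. GADD45A (13.6 to 112) and PLK2 (14.4 to 66.1) lie far above the line, and FDXR, ZMAT3, SESN1, TRIAP1, FAS and DDB2 lie below the lower dotted line.

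The members are also described by features that did not enter their choice. The median genomic span of the gene was 11 kb for the 7 higher members and 42.8 kb for all higher genes, and 19.01 kb for the 13 lower members and 23.4 kb for all lower genes. The GC content of the longest transcript was 47.2% in the median higher member and 49.7% in the median lower member, and 45.9% and 52.1% in all higher and all lower genes. These are descriptions of annotated genes and not tests. Another annotated gene shares exon bases with 8 of the 20 called members, and 12 share none.

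The rest of the pathway was read from the same fit. Its lists too were chosen with earlier results of these data known, so their shares are descriptions and not tests. The p53 relatives TP63 (log2 fold change -0.32, adjusted p = 0.252) and TP73 (-0.10, adjusted p = 0.796, and 0.00 to 0.11 in the settings that reversed its sign) were not called. Levels and activity of the p53 protein were not measured here.

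Of 36 upstream kinases, ligases and cofactors of p53, 17 were called higher and 6 lower (median log2 fold change 0.33). These are 47.2% and 16.7% of the list, and over all tested genes the shares were 25.8% and 26.8%. PPP1R13L, which encodes the p53 inhibitor iASPP, rose from 61.5 ± 12.9 to 177 ± 10.3 CPM (1.52, adjusted p = 2.57e-05), and its relative TP53BP2, whose protein ASPP2 steers p53 to death genes, rose from 106 ± 13.5 to 245 ± 16.3 CPM (1.21, adjusted p = 4.05e-05). DAXX, a histone chaperone that binds MDM2, rose by 0.99 (adjusted p = 0.00016). The kinase gene ATM fell by 0.86 (adjusted p = 0.00107), the deacetylase HDAC1 by 0.86 (adjusted p = 0.000202) and HEXIM1, an inhibitor of transcription elongation, by 0.77 (adjusted p = 0.000806).

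Of 66 further p53 targets 20 were higher, 23 lower, 18 not called and 5 not tested (median log2 fold change -0.08). Of those tested 32.8% were thus higher and 37.7% lower, against 25.8% and 26.8% of all tested genes. The decoy death receptor TNFRSF10C fell from 46.0 ± 1.8 to 9.2 ± 0.895 CPM (-2.32, adjusted p = 6.22e-07), the tetraspanin CD82 from 42.7 ± 3.05 to 9.18 ± 1.57 CPM (-2.21, adjusted p = 1.82e-06) and the ribosomal protein paralog RPS27L from 91.4 ± 13.8 to 21.9 ± 2.18 CPM (-2.06, adjusted p = 1.97e-06). Of the 1868 exon bases of TNFRSF10C, 734 are shared with other genes on the same strand, which makes its count less certain. The death gene PMAIP1, which encodes NOXA, rose from 24.9 ± 4.18 to 75.4 ± 3.68 CPM (1.60, adjusted p = 7.83e-06), the potassium-chloride cotransporter SLC12A4 by 1.63 (adjusted p = 7.57e-06) and PRKAB1, a subunit of the energy sensor AMPK, by 1.39 (adjusted p = 2.15e-05).

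Genes that p21 represses through the cell cycle complexes gave 7 of 20 higher and 2 lower (median 0.05). In percent this was 35.0% higher and 10.0% lower, beside 25.8% and 26.8% of all tested genes. CDC25A, a phosphatase that activates cyclin-dependent kinases, rose from 54.7 ± 2.37 to 181 ± 16.1 CPM (log2 fold change 1.72, adjusted p = 2.29e-06) and KIF23, a kinesin of cytokinesis, by 0.74 (adjusted p = 0.000851). CDK1 fell by 0.65 (adjusted p = 0.00406). CCNB2, a mitotic cyclin, fell by 0.32 (adjusted p = 0.0408), a call lost when any library other than DMSO replicate 2 was left out (adjusted p from 0.0628 to 0.158).

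Leaving out each library in turn showed which calls and signs depended on a single library. For the 20 called members the direction and the call held with each library left out, and GADD45A, ZMAT3 and FDXR moved by little. Of the 9 members not called, MDM2, MDM4, CDKN1A and APAF1 passed the threshold when a single library was left out. TIGAR, RRM2B, MDM4, CDKN1A and TP53INP1 changed sign at least once. PHLDA3 (0.12 to 0.30) and SUSD6 (0.13 to 0.22) kept their sign and stayed uncalled with any library left out.

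**Figure D5:**
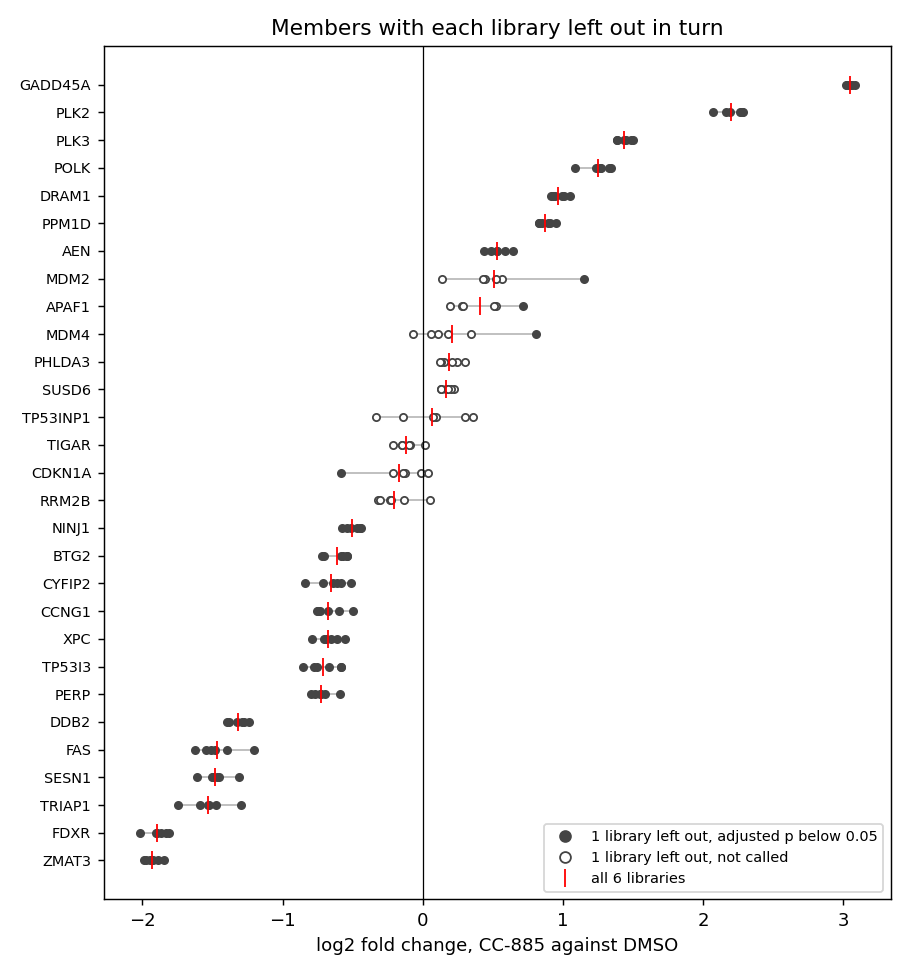
Log2 fold change of CC-885 against DMSO (x axis) for the 29 tested members with all 6 libraries (red marks) and with each library left out (circles, filled where the adjusted p is below 0.05). The called members keep filled circles on the same side of 0, while MDM2 (0.14 to 1.15), MDM4 (-0.07 to 0.81) and CDKN1A (-0.58 to 0.03) spread widely.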

How the data were processed

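The submitters deposited whole-number counts per gene for 6 libraries of HCCLM3 RNA, with no normalization, as read from the values. RNA was extracted with an RNeasy kit and libraries were made with a Hieff NGS MaxUp mRNA kit, per the labels' protocols. No aligner, counting program or strand setting is named in these sources. Mouse builds are listed per the submitters' processing notes, while all 20263 rows carry human Ensembl identifiers, and the table gives no coordinates. Identifiers were named by a gene name table (20148) or GENCODE 29 (76). Of low counts 64.9 to 67.2% were even, so fragments may have been counted more than once.

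Genes were filtered with filterByExpr (minimum count 10), scaled by TMM and tested with edgeR 4.0.16 under R 4.3.3 (quasi-likelihood F test, robust, no covariate), with Benjamini-Hochberg adjustment over 13444 genes. Standard errors were taken as the size of the log2 fold change divided by the root of its F statistic. Exon lengths, GC content and gene overlaps are from GENCODE 29. In simulated counts 67, 67 and 66 tested genes were changed 1.5-fold, 2-fold and 4-fold. With gene-wise dispersions (13341 genes tested) the fit recovered 17.9, 67.2 and 95.5% of them, and 13% of its calls were false. With trended dispersions (13356 genes tested) it recovered 32.8, 80.6 and 98.5%, and 2.08% of its calls were false. In the data 52.6% of tested genes were called, far more than were changed in the simulation, so these rates need not hold there. The members and lists were chosen with earlier results of these data known. All members are named, of each further list up to 3 called genes a direction, taken by smallest p, and relatives of members and of p53 with any value, apart from a few genes that are not reported here. Values in every library are given for members called with at least a 2-fold change, the p53 regulators, CDKN1A and FAS. PERP, EDA2R and SPATA18 were added to these after their values were seen. Alternatives were other scalings, DESeq2 1.42.0, limma-voom (limma 3.58.1), other filters, a replicate block, halved counts and each library left out. Offsets for GC content and exon length were chosen after seeing the data.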

Additional observations from a re-analysis of the deposited data

How the results depend on the processing

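Across the 15 alternatives the 20 called members kept their direction and call, and the members called numbered 7 to 9 higher and 13 to 15 lower. With each library left out in turn the members' median ranged from -0.39 (without CC-885 replicate 3) to -0.11, and the lower genes of the list repressed through p21 from 1 to 4. That last count was 2 in the fit reported, 1 with DESeq2 size factors or without any filter, and 4 when scaled by library size only or when 3 libraries had to reach a CPM of 5. Values of genes not called changed sign. With a library left out, MDM4 ranged from -0.072 to 0.81, CDKN1A from -0.58 to 0.034, RRM2B from -0.32 to 0.053, TIGAR from -0.21 to 0.017, TP53INP1 from -0.33 to 0.36, TP73 from -0.38 to 0.11, PLK1 from -0.29 to 0.039, SESN3 from -0.062 to 0.22 and CDKN1B from -0.11 to 0.013. With GC and length offsets the log2 fold change was 0.067 for CDKN1A, -0.097 for TP53INP1, 0.062 for TP73, 0.00076 for PLK1, -0.15 for SESN3 and 0.043 for CDKN1B. TP73 was at 0.0049 with limma-voom, and SESN3 at -0.0086 with library size only and -0.0097 with the filter at a CPM of 5. With the same offsets RRM2B was called lower (adjusted p = 0.0449), PHLDA3 (0.00997) and SUSD6 (0.0434) higher. The cause of these changes was not tested. The replicate block called 7 members higher and 13 lower, and 7273 genes in all. It changed no call of a member, of a relative of p53 or of a member, or of a named gene of the further lists. With it 18 upstream genes were higher and 7 lower, 21 and 24 of the further targets, and 7 and 3 of the genes repressed through p21. The deviations of equally numbered libraries correlated at 0.192, 0.0495 and 0.117, each library best with its own number, a hint from the data and not from the design. At this depth TP53INP1, EDA2R and SPATA18 cannot show a change of modest size.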

Other observations

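The DMSO libraries differed among themselves, and the order described here is the one that most often occurred among the members. In 11 of the 28 members with a mean of at least 5 CPM (39.3%), replicate 2 was the highest DMSO library, replicate 1 the next and replicate 3 the lowest, as in 24.0% of the 10802 genes at that level. These were CCNG1, DDB2, SESN1, TIGAR, FDXR, TP53I3, FAS, PERP, TRIAP1, DRAM1 and ZMAT3, of which 9 fell with CC-885, DRAM1 rose and TIGAR was not called. How often this order occurs among all genes that fell was not computed, so no link between the order and a fall can be read from this. The share of counts on ribosomal protein genes had the same order, at 9.21% in DMSO replicate 2, 7.3% in replicate 1 and 5.75% in replicate 3, and 4.13 to 4.69% in the CC-885 libraries. Its part in these values was not tested.

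MDM2 and MDM4 had their widest spread in the DMSO libraries, and CDKN1A in the CC-885 libraries. The CC-885 libraries gave a coefficient of variation of 8.49% for MDM2 and 16.7% for MDM4, and the DMSO libraries 6.23% for CDKN1A against 43.9% with CC-885.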
